A study of Mus musculus with 12 samples.

Results

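The small leucine-rich proteoglycan genes Bgn, Dcn, Lum, Fmod, Ogn, Prelp, Aspn, Ecm2, Podn and Tsku were followed in fetal membranes of mice that lack 2 of them, biglycan (Bgn) and decorin (Dcn). The 10 genes were taken by name from a count table of 48795 genes, and all 10 had enough counts to be tested. Small leucine-rich proteoglycans are secreted proteins of the extracellular matrix with a curved core of leucine-rich repeats. Several of them bind collagen fibrils and set how thick and how regular the fibrils become, and several also bind growth factors such as TGF-beta. In fetal membranes the collagen-rich stroma beneath the epithelium carries most of the mechanical load, and biglycan and decorin are its best studied members of the family. The question put to the family was whether other members are higher where biglycan and decorin are lost.

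RNA was sequenced from fetal membranes in 12 libraries, 3 in each of 4 groups. The E12 double knockout (DKO) and E18 DKO groups lack both Bgn and Dcn and carry the strain label C3H and C57BL/6, at embryonic days 12 and 18. The E12 wild-type (WT) group and the WT group labelled E18 carry the strain label C3H, so genotype and strain cannot be told apart in any comparison. No label says whether the 3 libraries of a group came from separate animals or from pools, and p-values therefore measure only the spread between these libraries. Total counts were 19967593 to 33065424 per library. Levels are CPM, counts scaled to a common total, on library sizes normalised by the trimmed mean of M-values (TMM), and a gene is called higher or lower when its p from edgeR's quasi-likelihood test, adjusted after Benjamini and Hochberg over 18153 genes, is under 0.05.

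Some libraries stood apart from their labels. Of the beta-globin counts, 74.8 to 87.8% were embryonic in the WT libraries labelled E18 and 1.33 to 2.67% in E18 DKO. The share was 82.3 to 85.1% in E12 DKO, 95.1 and 97.1% in E12 WT 2 and 3, and 14.8% in E12 WT 1. The 9 cartilage markers summed to 9.38 to 17.3 CPM in E18 DKO, against 529 to 1215 CPM in the WT libraries labelled E18, and to 381 to 639 CPM in E12 DKO, against 63.9, 458 and 599 CPM in E12 WT 1, 2 and 3. The 10 mesenchyme markers summed to 2950 to 5120 CPM in E18 DKO, against 10600 to 21697 CPM in the WT libraries labelled E18. Decidual and trophoblast markers summed to 894 CPM in WT library 3 labelled E18 and to at most 77.9 CPM in the other 11 libraries. The marker sums of epithelium, macrophages and endothelium stood higher in E18 DKO than in the WT libraries labelled E18, without overlap. Those of smooth muscle (660 to 1242 CPM, against 339 to 718 CPM) and yolk sac endoderm (81004 to 162700 CPM, against 53258 to 81301 CPM) overlapped. Epithelial markers summed to 4977 to 6414 CPM in E18 DKO, against 2153 to 2714 CPM in the WT libraries labelled E18, and to 2030 to 2367 CPM in E12 DKO, against 2955 to 4821 CPM in E12 WT. Macrophage markers summed to 838 to 1213 CPM in E18 DKO, against 326 to 433 CPM in the WT libraries labelled E18, and endothelial markers summed to 408 to 456 CPM in E18 DKO, against 200 to 366 CPM in those WT libraries. Single markers were mixed in that comparison, where 42.3% of all tested genes were called (20.5% higher and 21.8% lower). Of 8 epithelial markers 4 were called higher and 2 lower, of 7 macrophage markers 4 and 2, and of 8 endothelial markers 3 and 1. The epithelial marker Gabrp was at 0.128 to 0.218 CPM in E18 DKO, against 4.52 to 269 CPM in those WT libraries. Markers of epithelium, of mesenchyme and of yolk sac endoderm were present in all 12 libraries, with yolk sac endoderm genes at 53258 to 164900 CPM in sum. The part of these differences in the results below was not tested, and in bulk RNA fewer cells of a type and less RNA per cell cannot be told apart.

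The family lies in several clusters of the mouse genome (GRCm38). Dcn and Lum are 47.3 kb apart on chromosome 10, with Kera and Epyc beyond Lum. Ecm2 and Aspn are 11.7 kb apart on chromosome 13, followed by Omd and Ogn, and on chromosome 1 Prelp lies between Optc and Fmod. Podn is on chromosome 4, Tsku on chromosome 7 and Bgn on chromosome X. Promoters were taken as the 250 bases before and 50 bases after the first listed start of each gene in a RefSeq table of build GRCm38.p6. They were found for 8 of the 10 genes and not for Dcn and Lum. The Podn start used lies inside the counted gene, which spans chr4:108014791-108096445 on the minus strand, and is not at its 5′ end. The promoters below are those of 2 genes called lower and the 2 genes called higher in E18 DKO, and they are shown for their difference in base composition, which was noticed after the calls were known. Capitals mark CG dinucleotides, and the sequences run 5′ to 3′ on the strand of the gene: Fmod at chr1:134037004-134037303 on the plus strand, Ogn at chr13:49607765-49608064 on the plus strand, Podn at chr4:108031905-108032204 on the minus strand and Tsku at chr7:98361279-98361578 on the minus strand.
Fmod: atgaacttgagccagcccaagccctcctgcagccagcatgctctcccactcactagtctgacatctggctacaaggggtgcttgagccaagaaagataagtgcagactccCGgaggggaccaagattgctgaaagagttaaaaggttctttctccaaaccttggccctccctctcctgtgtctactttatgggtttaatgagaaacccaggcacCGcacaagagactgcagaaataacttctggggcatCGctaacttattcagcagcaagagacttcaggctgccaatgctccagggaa
Ogn: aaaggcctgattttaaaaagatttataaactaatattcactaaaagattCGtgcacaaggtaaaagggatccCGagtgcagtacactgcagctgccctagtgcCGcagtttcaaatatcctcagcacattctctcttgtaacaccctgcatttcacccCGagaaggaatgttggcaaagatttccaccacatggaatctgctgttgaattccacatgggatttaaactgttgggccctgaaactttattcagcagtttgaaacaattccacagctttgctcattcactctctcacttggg
Podn: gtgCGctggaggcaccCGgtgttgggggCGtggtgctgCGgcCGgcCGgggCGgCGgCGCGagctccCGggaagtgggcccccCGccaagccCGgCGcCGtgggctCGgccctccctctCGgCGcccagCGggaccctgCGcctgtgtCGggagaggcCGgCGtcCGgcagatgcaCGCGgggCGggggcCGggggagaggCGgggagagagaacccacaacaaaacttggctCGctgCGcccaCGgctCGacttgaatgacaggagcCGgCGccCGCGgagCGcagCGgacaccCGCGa
Tsku: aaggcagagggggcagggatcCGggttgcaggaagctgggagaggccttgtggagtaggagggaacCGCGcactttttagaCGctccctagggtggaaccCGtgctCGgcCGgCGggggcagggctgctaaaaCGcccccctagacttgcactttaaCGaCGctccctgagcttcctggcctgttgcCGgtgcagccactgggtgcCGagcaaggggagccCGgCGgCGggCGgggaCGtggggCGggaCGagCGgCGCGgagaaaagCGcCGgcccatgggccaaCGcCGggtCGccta

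The promoters of Podn and Tsku held 77.0 and 69.0% G and C with 41 and 28 CG dinucleotides, and those of Fmod and Ogn held 51.0 and 42.3% with 3 and 4. Over 32817 promoters of this length the medians were 52.7% and 7. The remaining members ranged from Aspn with 31.0% and 3 CG dinucleotides and Ecm2 with 41.0% and 4, through Prelp with 55.3% and 7, to Bgn with 63.7% and 9. The TATA box letters TATAAA, searched on both strands, occurred 2 times each in the promoters of Ogn, where both matches overlap, and Aspn, and in 13.6% of all promoters. The GC box letters GGGCGG occurred 2 times each in Podn and Tsku, 1 time in Ecm2 and 3 times in Bgn, where 2 matches overlap, and in 35.6% of all promoters. The letters CAGAC, bound by SMAD proteins, occurred 2 times in Fmod and 3 times in Prelp and in 49.6% of all promoters, while the AP-1 letters TGANTCA occurred in none of the 8 and in 7.81% of all promoters.

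Both targeted genes were reduced in all 6 DKO libraries. Bgn encodes a proteoglycan with a pair of glycosaminoglycan chains and Dcn encodes its close relative with a single chain. Bgn was at 16.4, 16.2 and 14.3 CPM in E12 DKO, against 686, 270 and 357 CPM in E12 WT, and at 25.1, 23.9 and 24.6 CPM in E18 DKO, against 239, 223 and 381 CPM in the WT libraries labelled E18. Dcn was at 5.92, 8.44 and 6.95 CPM in E12 DKO, against 762, 235 and 325 CPM in E12 WT, and at 4.67, 4.78 and 6.21 CPM in E18 DKO, against 198, 353 and 978 CPM in the WT libraries labelled E18. The genotypes did not overlap for either gene, and both wild-type groups varied widely among their own libraries for Dcn.

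Bgn fell at both stages, with a log2 fold change of -4.81 ± 0.36 at E12 (SE; adjusted p = 0.000595) and one of -3.52 ± 0.34 at E18 (9.7e-05). Dcn fell too, with -5.95 ± 0.67 at E12 (adjusted p = 0.0134) and -6.61 ± 0.69 at E18 (0.000126). The DKO mean was 3.57% of the wild-type mean for Bgn at E12 and 8.73% at E18, and for Dcn it was 1.61% and 1.02%. Counts per gene do not show which exons the remaining reads come from. The difference between the stage effects was 1.29 ± 0.44 for Bgn (adjusted p = 0.0362), a call lost with library size alone as scaling (0.59, adjusted p = 0.26) and without any 1 of the 6 DKO libraries or WT library 1 or 2 labelled E18 (adjusted p = 0.0563 to 0.0871). Dcn at E12 missed the threshold when E12 DKO 1, 2 or 3 was left out (adjusted p = 0.0881, 0.103 and 0.114), with values between -6.09 and -5.84, and the E12 calls of both genes were lost when only the 6 E12 libraries were fitted (adjusted p = 0.0708 each).

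**Figure D1:**
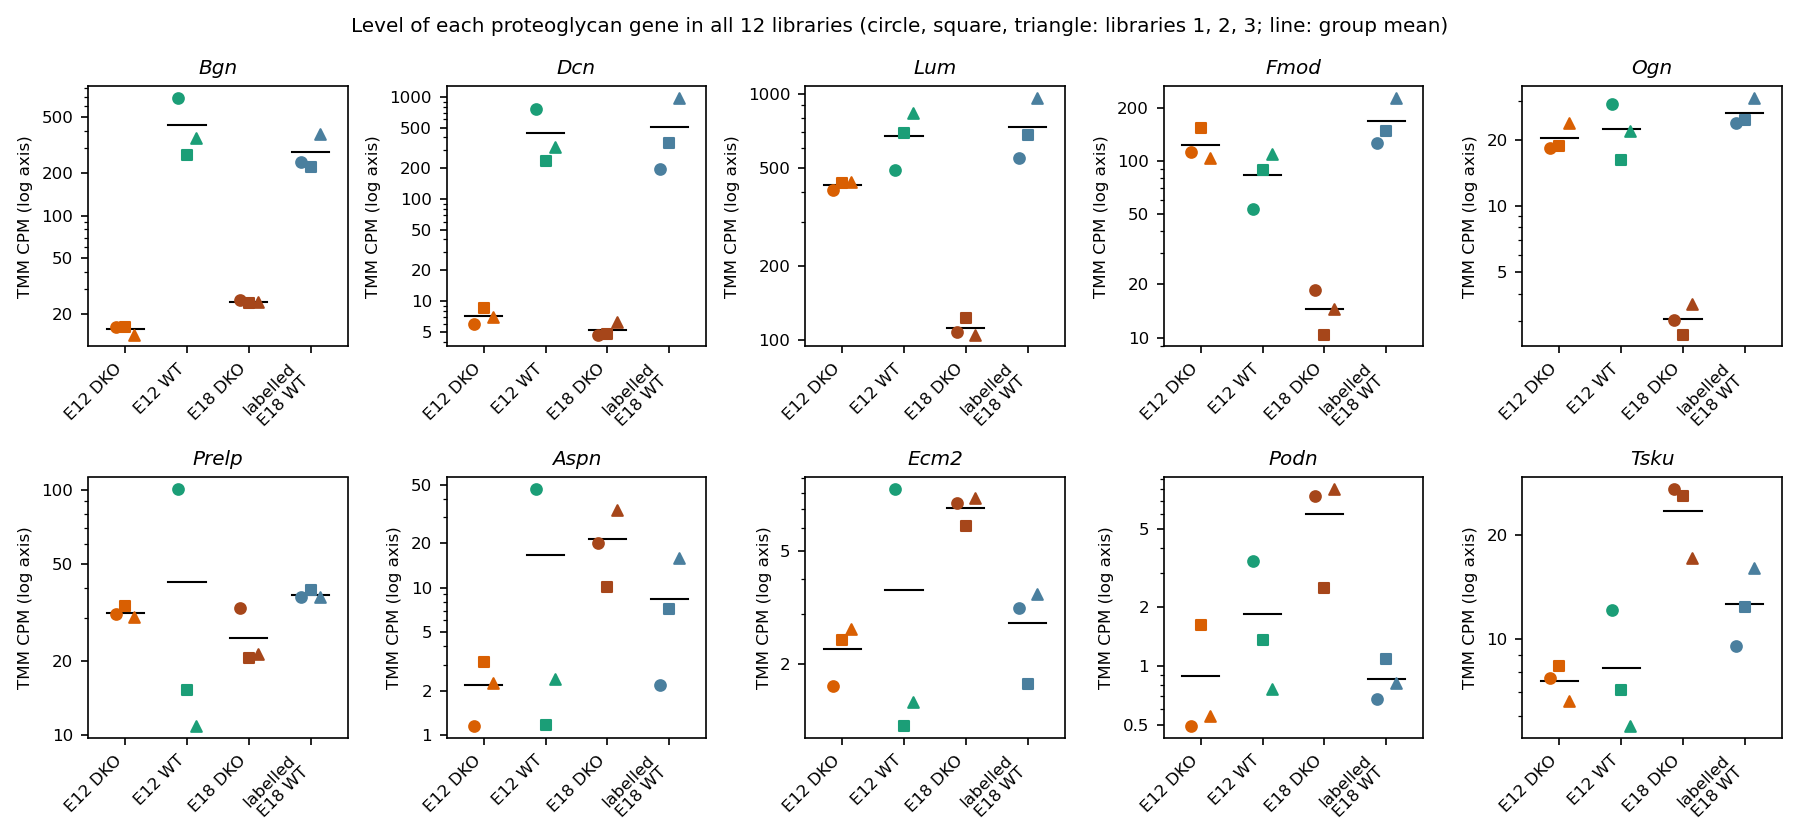
TMM CPM on log axes for each of the 10 genes, with 1 point per library (circle, square and triangle for libraries 1, 2 and 3) and a line at the mean of each group of 3. Bgn and Dcn are low in all 6 DKO libraries, Lum, Fmod and Ogn are low in E18 DKO, and Podn, Tsku, Ecm2 and Aspn are highest as group means in E18 DKO. The single highest library of Aspn and of Ecm2 is E12 WT 1.

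Summed over the 8 genes that were not targeted, the mean RNA level was lower in DKO than in wild-type libraries at both stages. To add genes of different length, levels were divided by exon length and are given as CPM per kilobase. Bgn and Dcn together were at 5.97 ± 0.645 CPM per kilobase in E12 DKO, against 283 ± 171 in E12 WT, and at 6.53 ± 0.429 in E18 DKO, against 291 ± 212 in the WT libraries labelled E18 (SD, n = 3 each). The other 8 genes together were at 263 ± 14.3 CPM per kilobase in E12 DKO, against 381 ± 65.7 in E12 WT, and at 86.6 ± 2.48 in E18 DKO, against 431 ± 123 in the WT libraries labelled E18. With TMM scaling, all 6 DKO sums of the other 8 genes lay below all 6 wild-type sums. They were 248.7 to 277.3 in E12 DKO, against 318.5 to 449.5 in E12 WT. At E18 they were 84.2 to 89.1 in DKO, against 327 to 568 in the WT libraries labelled E18. The difference of means, DKO minus WT, was -117.8 CPM per kilobase for the other 8 genes at E12 beside -277.2 for Bgn and Dcn, and -344.9 beside -284.0 at E18. With library size alone as scaling, the means of the 8-gene sum were closer at E12, at 294 CPM per kilobase in E12 DKO, against 345.9 in E12 WT. The libraries were then not separated at E12, since E12 WT 1 lay below the E12 DKO libraries. At E18 the means were 75.9 in DKO, against 487.2 in the WT libraries labelled E18. These sums are descriptions and were given no test.

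Lumican carried most of these sums. Lum alone was at 205 ± 8.65 CPM per kilobase in E12 DKO, against 324 ± 83.2 in E12 WT, and at 54.0 ± 4.60 in E18 DKO, against 351 ± 102 in the WT libraries labelled E18. Without Lum, the remaining 7 genes summed to 58.3 ± 8.49 CPM per kilobase in E12 DKO, against 57.0 ± 22.2 in E12 WT, which is within the spread of the libraries. The E12 DKO libraries ran from 53.3 to 68.1 and the E12 WT libraries from 40.8 to 82.3. The highest was E12 WT 1, and the other E12 WT libraries lay below every E12 DKO library, so the likeness of these means rests on E12 WT 1. At E18 the 7 genes summed to 32.6 ± 6.65 in E18 DKO, against 80.0 ± 21.6 in the WT libraries labelled E18. Lum made up 76.2% of the 10-gene sum in E12 DKO, against 51.0% in E12 WT, and 58.1% in E18 DKO, against 51.1% in the WT libraries labelled E18. That sum includes Bgn and Dcn, so their loss alone raises the share of every other gene.

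**Figure D2:**
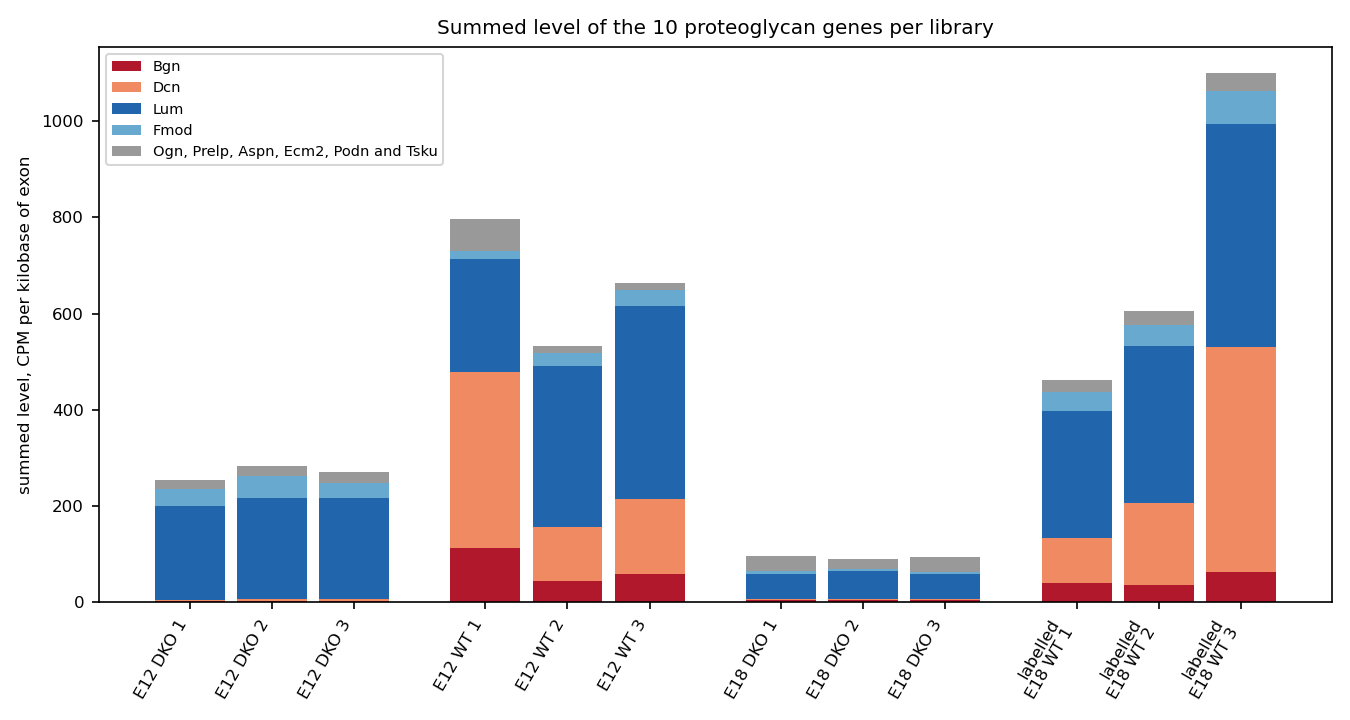
Stacked bars of the summed level of the 10 genes in each library, in CPM per kilobase of exon, with Bgn in red, Dcn in orange, Lum and Fmod in blues and the other 6 genes in grey. The 10-gene sum averages 269 in E12 DKO, against 664 in E12 WT, and 93.1 in E18 DKO, against 722 in the WT libraries labelled E18, and Lum is the largest block in every library but E12 WT 1 and WT library 3 labelled E18, where Dcn is.

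The order of levels per kilobase differed between groups, while Lum had the highest group mean in all 4. In E12 DKO, Lum was followed by Fmod at a mean of 37.3 CPM per kilobase, then by Prelp at 8.75 and Ogn at 8.0, neighbours whose libraries overlapped. In E12 WT the order was Lum, Dcn at 211, Bgn at 71.8 and Fmod at 25.3, and Lum and Dcn overlapped there. In E18 DKO, Lum was followed by Aspn at 9.05, Tsku at 7.68, Prelp at 6.92, Fmod at 4.39 and Bgn at 4.02, of which Aspn overlapped Tsku, Tsku overlapped Prelp and Fmod overlapped Bgn, while the lowest Prelp library lay above the highest Fmod library. In the WT libraries labelled E18 the order was Lum, Dcn at 244, Fmod at 50.5 and Bgn at 46.1, where Lum overlapped Dcn and Fmod overlapped Bgn, and Dcn did not overlap Fmod. Podn had the lowest mean level per kilobase in every group but E18 DKO, where Ogn was lowest at 1.21 beside Podn at 1.40.

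At E12 no family member other than the targets was called. In E12 DKO against E12 WT, 2 of the 10 genes were called, both lower and both targeted, where 0.353% of all tested genes were called (0.0936% higher and 0.259% lower). Of the other 8, edgeR called 0, 2 had an unadjusted p under 0.05 (Lum and Aspn; 4416 of all 18153 genes had one), limma voom called 0 and the DESeq2 Wald test called 1, Aspn, as lower. Their median log2 fold change was -0.54, against -0.08 over all tested genes. For 1 of the 8, Lum, the libraries of the genotypes did not overlap in TMM CPM, with DKO lower. On that scale 30.1% of all genes did not overlap (15.7% higher and 14.4% lower). All genes split into 17 higher and 47 lower calls, or 41 and 14 with library size alone.

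At E18, 7 of the 10 genes were called, 2 higher and 5 lower including both targets, where 42.3% of all tested genes were called (20.5% higher and 21.8% lower). Beside so large a background the count of members says nothing particular to the family. That comparison called 3725 genes higher and 3953 lower, and 2382 higher and 6015 lower with library size alone as scaling. Of the other 8 genes, 3 were called lower (Lum, Fmod and Ogn), 2 higher (Podn and Tsku) and 3 were not called, with a median log2 fold change of 0.15, against -0.04 over all tested genes. Their libraries did not overlap for 7 of the 8, with DKO higher for 3 and lower for 4, where 56.9% of all genes did not overlap (27.8% higher and 29.1% lower).

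The genotype effect differed between the stages for 5 of the 10 genes, where 41.9% of all tested genes were called in that comparison (21.6% higher and 20.3% lower, or 2187 higher and 6438 lower genes with library size alone, against 3921 and 3679). These were Bgn, Lum, Fmod, Ogn and Podn. The E18 effect is measured against libraries whose embryonic globin share and cartilage marker sum are nearer to those of E12 DKO than of E18 DKO. E12 DKO was therefore also set against the WT libraries labelled E18, which shares samples with the other comparisons. There 2 of the 10 genes were called, again Bgn (-4.17 ± 0.35, adjusted p = 0.000861) and Dcn (-6.16 ± 0.67, adjusted p = 0.00526), where 0.187% of all genes were called (0.16% higher and 0.0275% lower). Of the other 8, edgeR called 0, 2 had an unadjusted p under 0.05 (Lum and Tsku), and limma voom and DESeq2 called 0. For 3 of the 8 (Lum, Prelp and Tsku) the E12 DKO libraries lay below all the WT libraries labelled E18, where 30% of all genes did not overlap (15.5% higher and 14.5% lower), and for none of the 8 did they lie above.

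**Figure D3:**
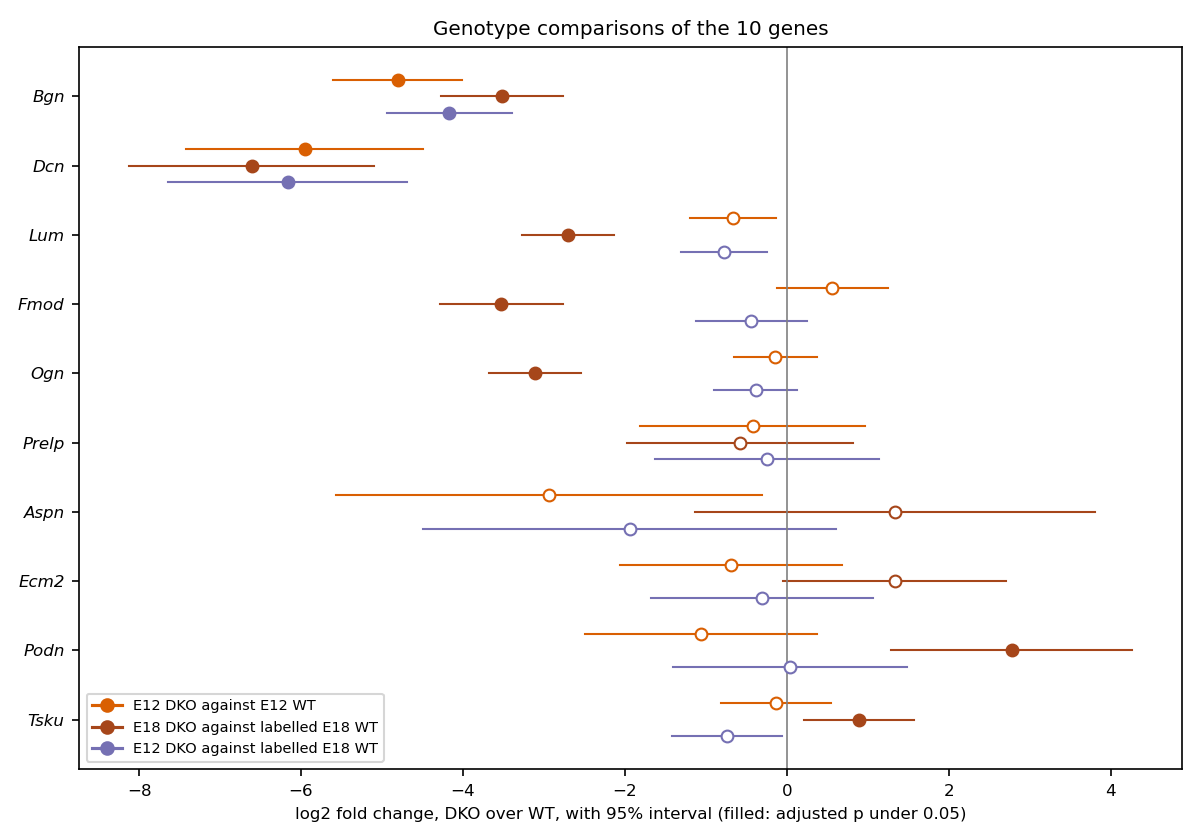
Log2 fold change, DKO over WT, with 95% intervals for the 10 genes in 3 comparisons: E12 DKO against E12 WT, E18 DKO against the WT libraries labelled E18, and E12 DKO against the WT libraries labelled E18. Filled points have an adjusted p under 0.05. Apart from Bgn and Dcn, the filled points are all from the E18 comparison, with Lum, Fmod and Ogn left of 0 and Podn and Tsku right of 0.

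Lum, Fmod and Prelp belong to the same branch of the family, and their core proteins, like those of other branches, bind fibrillar collagen. Lumican and fibromodulin carry keratan sulfate chains. Lum, whose product regulates fibril diameter and corneal transparency, was at 405, 434 and 438 CPM in E12 DKO, against 490, 695 and 833 CPM in E12 WT. At E18 the DKO libraries held 108, 123 and 105 CPM and the WT libraries labelled E18 held 548, 677 and 962 CPM. With TMM scaling, all DKO libraries were below all wild-type libraries at both stages. At E12 this depended on the scaling. E12 WT 1 held 11129 Lum counts of 26478985 in total, a lower share than in any E12 DKO library, such as 12326 of 26572279 in E12 DKO 1. The E12 log2 fold change was -0.66 ± 0.24 with a 95% interval of -1.19 to -0.13 and did not pass (adjusted p = 0.14). The E12 value passed without E12 WT 1 (-0.84, adjusted p = 0.0266) and was -0.365 with library size alone (adjusted p = 0.384). At E18 Lum fell by 2.70 ± 0.26 (adjusted p = 9.19e-05), and the stage effects differed by -2.04 ± 0.35 (adjusted p = 0.00119).

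Fibromodulin binds collagen I and is abundant in tendon and cartilage. Fmod was at 112, 153 and 104 CPM in E12 DKO, against 53.3, 88.3 and 109 CPM in E12 WT, with overlapping libraries. The E18 DKO libraries held 18.5, 10.4 and 14.6 CPM and the WT libraries labelled E18 held 127, 147 and 227 CPM, with every DKO library below. The E12 log2 fold change was 0.56 ± 0.31, not called (adjusted p = 0.288), with a 95% interval of -0.12 to 1.25. At E18 Fmod fell by 3.53 ± 0.35 (adjusted p = 9.96e-05), and the stage effects differed by -4.09 ± 0.46 (adjusted p = 0.000226). Set against the WT libraries labelled E18, E12 DKO gave -0.44 ± 0.31 (adjusted p = 0.684), so the 2 wild-type groups placed E12 DKO on opposite sides of them for Fmod, neither past the test.

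Prelp, a basement membrane and cartilage proteoglycan, turned on 1 library. It was at 31.2, 33.5 and 30.2 CPM in E12 DKO, against 101, 15.3 and 10.9 CPM in E12 WT. E12 WT 1 lay above all E12 DKO libraries and E12 WT 2 and 3 lay below them. The log2 fold change was -0.42 ± 0.63 (adjusted p = 0.717) with all libraries and 1.27 without E12 WT 1 (adjusted p = 0.00893). In that fit Prelp was the 1 member called higher at E12 among 4 called. The same fit called 3199 of all genes (1298 higher and 1901 lower), against 64 with all libraries. At E18 the DKO libraries held 33.0, 20.6 and 21.5 CPM and the WT libraries labelled E18 held 36.6, 39.2 and 36.5 CPM, with no overlap. The E18 log2 fold change was -0.58 ± 0.64 (adjusted p = 0.483), and -0.59 without E12 WT 1, where it was called lower (adjusted p = 0.0264). E12 WT 1 is also the library with 14.8% embryonic globin and the lowest cartilage marker sum of its group.

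Ogn encodes osteoglycin, also called mimecan, of bone and vessel wall. Ogn was at 18.3, 18.7 and 23.9 CPM in E12 DKO, against 29.2, 16.1 and 22.0 CPM in E12 WT, with overlapping libraries. The E18 DKO libraries held 3.02, 2.60 and 3.59 CPM and the WT libraries labelled E18 held 23.8, 24.6 and 31.0 CPM, and every DKO library was far below. The E12 log2 fold change was -0.14 ± 0.23 (adjusted p = 0.743), and 0.18 with library size alone (adjusted p = 0.616), so it had no settled direction. At E18 Ogn fell by 3.11 ± 0.26 (adjusted p = 5.51e-05), and the stage effects differed by -2.97 ± 0.34 (adjusted p = 0.000238). Its promoter, printed above, is among the poorer ones of the family in G and C.

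Aspn and Ecm2 are the neighbours on chromosome 13. Aspn encodes asporin, which binds collagen and TGF-beta and carries a run of aspartates, and Ecm2 encodes a matrix protein with a related repeat domain. Aspn was at 1.15, 3.15 and 2.24 CPM in E12 DKO, against 46.5, 1.18 and 2.41 CPM in E12 WT, where E12 WT 1 alone was high. At E18 the DKO libraries held 20.1, 10.15 and 33.4 CPM and the WT libraries labelled E18 held 2.19, 7.15 and 15.9 CPM, with overlap. Neither log2 fold change was called, with -2.93 ± 1.20 at E12 (adjusted p = 0.17) beside 1.34 ± 1.12 in the E18 comparison (adjusted p = 0.358), and the E12 value was 0.31 without E12 WT 1 (adjusted p = 0.811). The difference between stages was 4.27 ± 1.64 (adjusted p = 0.0556), and 1.03 without E12 WT 1 (adjusted p = 0.427). That difference was called with DESeq2 (adjusted p = 0.009), with no filter (0.0392) and without E12 WT 2 (0.0202), E12 WT 3 (0.031) or WT library 3 labelled E18 (0.0465). With E12 WT 1 and WT library 3 labelled E18 both left out, Aspn was called higher at E18 (2.17, adjusted p = 0.0217).

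Ecm2 was at 1.68, 2.44 and 2.66 CPM in E12 DKO, against 8.24, 1.21 and 1.47 CPM in E12 WT, where E12 WT 1 was again the high library. The E18 DKO libraries held 7.37, 6.14 and 7.68 CPM and the WT libraries labelled E18 held 3.17, 1.70 and 3.53 CPM, and every DKO library was above. The log2 fold change was -0.69 ± 0.62 at E12 (adjusted p = 0.52), and 0.76 without E12 WT 1 (adjusted p = 0.173). At E18 it was 1.34 ± 0.63 (adjusted p = 0.107). The E18 value was called higher by limma voom (adjusted p = 0.0495), in a fit of only the E18 groups (adjusted p = 0.0133) and without E12 WT 1 (1.34, adjusted p = 0.00521). The stage effects of Ecm2 differed by 2.03 ± 0.88, not called (adjusted p = 0.0858). The difference was called with DESeq2 (adjusted p = 0.047) and without E12 WT 2 (0.029) or E12 WT 3 (0.0413). It shrank to 0.58 without E12 WT 1 and to 1.31 with library size alone (adjusted p = 0.217), and was called in neither fit.

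Podn and Tsku were the 2 of the 10 genes called higher in E18 DKO. Podn encodes podocan, known from the kidney and the vessel wall, and Tsku encodes tsukushi, a secreted modulator of BMP and Wnt signalling. Podn was at 0.493, 1.63 and 0.554 CPM in E12 DKO, against 3.44, 1.36 and 0.765 CPM in E12 WT, with overlap. At E18 the DKO libraries held 7.37, 2.52 and 8.01 CPM and the WT libraries labelled E18 held 0.678, 1.08 and 0.821 CPM, with every DKO library above. Podn rose by 2.78 ± 0.68 on the log2 scale at E18 (adjusted p = 0.00743), against -1.06 ± 0.65 at E12 (adjusted p = 0.336), and the effects differed by 3.84 ± 0.94 (adjusted p = 0.00785). The E12 value of Podn ran from -1.81 without E12 DKO 2 to -0.27 without E12 WT 1 and was not called in any fit without 1 library (adjusted p = 0.275 to 0.792). Its level stayed low in sum, at 1.40 CPM per kilobase in E18 DKO.

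Tsku was at 7.72, 8.37 and 6.59 CPM in E12 DKO, against 12.1, 7.10 and 5.59 CPM in E12 WT, with overlap. The E18 DKO libraries held 27.2, 25.9 and 17.2 CPM and the WT libraries labelled E18 held 9.54, 12.4 and 16.0 CPM, with every DKO library above, the closest pair being 17.2 and 16.0. Tsku rose by 0.89 ± 0.31 on the log2 scale at E18 (adjusted p = 0.038), and its E12 value was -0.13 ± 0.31 (adjusted p = 0.823), or 0.18 with library size alone (adjusted p = 0.756). The E18 call was lost with library size alone (0.54, adjusted p = 0.193), with no filter (adjusted p = 0.0529), with the replicate number as a block (0.84, adjusted p = 0.063) and in 7 of the 12 fits without 1 library. Those were the fits without any 1 of the E12 DKO libraries (adjusted p = 0.0509 to 0.0547), without E18 DKO 1 (0.12) or 2 (0.0968), and without WT library 1 (0.134) or 2 (0.0961) labelled E18. The stage effects of Tsku differed by 1.02 ± 0.44, not called (adjusted p = 0.081).

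**Figure D4:**
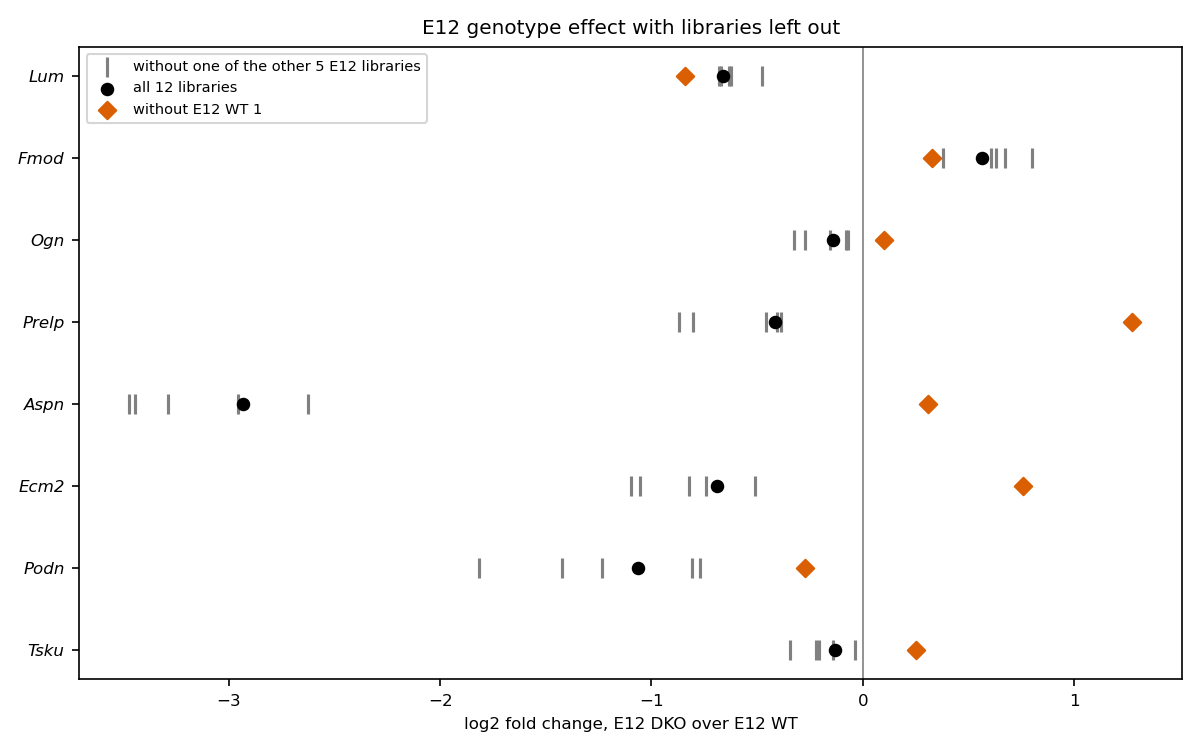
Log2 fold change, E12 DKO over E12 WT, of the 8 genes that were not targeted, with all 12 libraries (black), without E12 WT 1 (orange) and without each of the other 5 E12 libraries (grey ticks). Without E12 WT 1 the values of Ogn, Prelp, Aspn, Ecm2 and Tsku lie above 0, at 0.10, 1.27, 0.31, 0.76 and 0.25, and with all libraries they lie below 0.

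In E18 DKO against E12 DKO, 6 of the 10 genes were called, where 46% of all tested genes were called (23.2% higher and 22.8% lower), as 4203 higher and 4146 lower genes, or 2809 and 5947 with library size alone. The libraries did not overlap for 7 of the 8 genes that were not targeted, with E18 DKO higher for 4 and lower for 3, where 67.2% of all genes did not overlap (33.1% higher and 34.1% lower). The log2 fold changes of the genes called lower were -1.93 ± 0.25 for Lum (adjusted p = 0.000228), -3.09 ± 0.34 for Fmod (adjusted p = 0.000119) and -2.73 ± 0.25 for Ogn (adjusted p = 6.53e-05). Podn rose by 2.74 ± 0.67 (adjusted p = 0.00713), Tsku by 1.63 ± 0.32 (adjusted p = 0.00197) and Aspn by 3.28 ± 1.22 (adjusted p = 0.0455), the Aspn call being lost with library size alone (adjusted p = 0.0547), with the replicate block (3.00, adjusted p = 0.0884) and without E12 DKO 1, 2 or 3, E18 DKO 1, 2 or 3, or WT library 2 labelled E18 (adjusted p = 0.0505 to 0.133). Ecm2 was at 1.64 ± 0.63 (adjusted p = 0.0527) and the residual Bgn counts at 0.65 ± 0.31 (adjusted p = 0.111). Ecm2 was called higher there with DESeq2 (adjusted p = 0.0201), with limma voom (0.0265), in a fit of only these groups (0.00118) and without E12 WT 1 (0.00158), 2 (0.0283) or 3 (0.0354). Bgn was called higher in a fit of only these groups (adjusted p = 0.0031) and without E12 WT 1 (0.0197), and both genes were called with E12 WT 1 and WT library 3 labelled E18 left out together (0.00142 for Ecm2 and 0.00225 for Bgn). Beside 46% of all genes, the count of members called is no result about the family. In the WT libraries labelled E18 against E12 WT, edgeR called 0 of the 10 genes, 1 had an unadjusted p under 0.05, and DESeq2 and limma voom called 0, where 0.953% of all genes were called (0.292% higher and 0.661% lower), as 53 higher and 120 lower genes, or 181 and 91 with library size alone. That 1 was Fmod, at 1.00 ± 0.31 (adjusted p = 0.145), the only one of the 8 genes not targeted whose libraries did not overlap there, where 17.9% of all genes did not (9.29% higher and 8.6% lower). Without E12 WT 1, Prelp was called higher in the WT libraries labelled E18 (1.51, adjusted p = 0.00798).

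The rest of the family was scarce only in part, with Nyx reaching 34.0 CPM in E18 DKO 3 and Chad 13.5 CPM in E18 DKO 2. Of the 8 other family genes listed, Omd, Kera, Epyc and Podnl1 had too few counts to be tested, with at most 10 counts in any library. Optc, Chad, Chadl and Nyx were tested. At E12 edgeR called 0 of these 4, where 0.353% of all genes were called, 0 had an unadjusted p under 0.05, and DESeq2 and limma voom called 0. At E18, 3 of the 4 were called, 2 higher and 1 lower, where 42.3% of all genes were called. Chad, a chondroadherin gene of cartilage, rose by 2.27 ± 0.60 (adjusted p = 0.0111), with 10.2, 13.5 and 2.56 CPM in E18 DKO, against 2.64, 1.38 and 1.44 CPM in the WT libraries labelled E18, which overlapped. Nyx, the nyctalopin gene of the retina, rose by 3.24 ± 1.20 (adjusted p = 0.0484), with 3.57, 5.16 and 34.0 CPM in E18 DKO, against 1.51, 2.20 and 0.780 CPM in the WT libraries labelled E18, which did not overlap. Chadl fell by 1.74 ± 0.56 (adjusted p = 0.028), with 1.10, 2.56 and 0.926 CPM in E18 DKO, against 4.64, 8.0 and 2.79 CPM in the WT libraries labelled E18, again with no overlap. limma voom did not call Nyx, whose E18 DKO 3 value stood apart.

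Genes that work with the family were read from 4 lists. At E12, edgeR called 0 genes in any of them, where 0.353% of all tested genes were called. Of 10 collagen genes, 1 had an unadjusted p under 0.05 at E12, where 4416 of all 18153 genes had one. It was Col12a1 (1.68 ± 0.38, adjusted p = 0.0703), which DESeq2 called and limma voom did not. At E18, 6 of the 10 collagens were called lower and 2 higher, where 42.3% of all tested genes were called (21.8% lower and 20.5% higher). Among the lower ones Col14a1 was at -1.22 ± 0.18 (adjusted p = 0.00055), Col1a2 at -2.26 ± 0.34 (adjusted p = 0.000629), Col3a1 at -2.83 ± 0.44 (adjusted p = 0.000677) and Col5a1 at -1.30 ± 0.22 (adjusted p = 0.001). The 2 called higher, named after their values were seen, were the collagen VI chains Col6a1 (1.73 ± 0.39, adjusted p = 0.00507) and Col6a2 (1.83 ± 0.59, adjusted p = 0.0274). The median over the 10 was -1.26, against -0.04 over all tested genes. Col1a1 and Col1a2 are themselves among the 10 mesenchyme markers, and Col1a1 alone gave 6059 to 11553 CPM of that sum in the WT libraries labelled E18, so the sum is not a separate measure from the collagens. Of the 10 mesenchyme markers, 6 were called lower and 2 higher in E18 DKO, and Pdgfra was at 109, 184 and 132 CPM in E18 DKO, against 84.2, 81.3 and 152 CPM in the WT libraries labelled E18.

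Of 19 tested enzymes that build or modify the glycosaminoglycan chains and sulfated tyrosines of the family, 3 were called higher and 5 lower at E18, with a median of -0.19. The keratan sulfate sulfotransferase Chst1 rose by 2.03 ± 0.27 (adjusted p = 0.000351) and the tyrosylprotein sulfotransferase Tpst2 by 1.08 ± 0.18 (adjusted p = 0.00107). Its relative Tpst1 fell (-1.57 ± 0.28, adjusted p = 0.00151), as did the dermatan sulfate sulfotransferase Chst14 (-1.18 ± 0.25, adjusted p = 0.0033). At E12, 6 of the 19 had an unadjusted p under 0.05, where 4416 of all 18153 genes had one, DESeq2 called 3 lower (B4galt7, Chst1 and Chsy1, named after their values were seen) and limma voom called 0. Of 8 tested proteases that process or cleave the family, 1 was called at E18, Adamts4, which fell by 1.55 ± 0.54 (adjusted p = 0.038). At E12, 1 protease had an unadjusted p under 0.05, Htra1 at -3.50 ± 1.27 (adjusted p = 0.137), which DESeq2 called and limma voom did not. Of 17 tested ligands and receptors of the family, 6 were called higher and 2 lower at E18, with a median of 0.28. Egfr, a decorin receptor, rose by 1.23 ± 0.22 (adjusted p = 0.00157), Tgfb1 by 0.78 ± 0.17 (adjusted p = 0.00395) and Tnxb by 5.30 ± 1.30 (adjusted p = 0.00774), and Ccn4 fell by 1.41 ± 0.26 (adjusted p = 0.00159). At E12, 7 of the 17 had an unadjusted p under 0.05, beside 4416 of all 18153 genes, and DESeq2 and limma voom called 0. DESeq2 did not call Tnxb at E18. These shares stand beside the 42.3% of all tested genes called at E18.

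Genes with a like pattern were looked for by Pearson's correlation of log2(CPM + 0.5) over the 12 libraries. These fall into 4 groups that differ in stage and strain, so the values are descriptions. Lum was most like the embryonic globin gene Hbb-y (r = 0.975), Erg28 (r = 0.971) and the embryonic globin gene Hba-x (r = 0.966). Fmod was most like Plxna3 (r = 0.985), Cdkn2c (r = 0.984) and Zfp354c (r = 0.979), and Ogn was most like Slco1b2 (r = 0.965), Cyp51 (r = 0.964) and Cpz (r = 0.957). Aspn was most like Cd34 (r = 0.962), Aoc3 (r = 0.957) and Dkk3 (r = 0.935), and Ecm2 was most like Itgb6 (r = 0.985), Emp1 (r = 0.976) and Gcnt2 (r = 0.972). Podn was most like Tmem184a (r = 0.953), Dusp5 (r = 0.95) and Fbrs (r = 0.95), and Tsku was most like Esm1 (r = 0.974), Slc7a6 (r = 0.973) and Rbm18 (r = 0.97). Prelp had the lowest closest values, with Ppp1r12b (r = 0.917), Atxn1 (r = 0.897) and Kank2 (r = 0.884).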

How the data were processed

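The deposited values are raw read counts per gene for 12 libraries, per the file headers made with featureCounts 1.5.0 on Ensembl release 86 (GRCm38) with strand option 2 and without counting reads that align to several places. Trimmomatic 0.36, STAR 2.4.2a and Subread 1.5.0 are named in the submitters' processing notes. For E12 DKO 1 the counts were read from the table of the whole series, since its own file lacks them, and the other 11 files each matched 1 column of that table. Symbols were found for 48349 of 48795 gene IDs. Exon length per gene is the length column of the files, per the file headers.

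Genes were filtered with filterByExpr (18153 left), scaled by TMM and fitted in edgeR 4.0.16 (R 4.3.3) with 1 mean per group and 8 residual degrees of freedom. Each SE is the size of the log2 fold change divided by the root of F, and intervals are at 95%. The biological coefficient of variation was 0.373 over all libraries and 0.177, 0.549, 0.331 and 0.337 within E12 DKO, E12 WT, E18 DKO and the WT libraries labelled E18. An exact permutation test of 3 against 3 cannot go below 0.1 and was not used. Alternatives used limma 3.58.1 and DESeq2 1.42.0. The fit was also run on simulated counts with changes placed in E12 DKO alone, which does not cover the many changes of the E18 comparison. Likeness was read among tested genes that average at least 5 CPM and have a conventional symbol.

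The members and lists were chosen with earlier results of these data known. Named genes are all 10 members, other family genes called in a genotype comparison, from each list up to 4 genes of lowest adjusted p, and the 3 genes most like each member. Python 3.11.15 with matplotlib 3.10.9 drew the figures.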

Additional observations from a re-analysis of the deposited data

Results flagged for a closer look

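For 5 of the 10 genes the genotype effect, DKO over WT, differed between E18 and E12 by the test of the difference itself (edgeR, adjusted over all tested genes). Fmod was -3.53 at E18 and 0.56 at E12, a difference of -4.09. Ogn was -3.11 and -0.14, a difference of -2.97, and Lum was -2.70 and -0.66, a difference of -2.04. Podn was 2.78 and -1.06, a difference of 3.84. The targeted gene Bgn was -3.52 and -4.81, a difference of 1.29, with 25.1, 23.9 and 24.6 CPM left in E18 DKO and 16.4, 16.2 and 14.3 CPM left in E12 DKO. The wild-type side of the E18 effect rests on libraries with 74.8 to 87.8% embryonic globin, against 1.33 to 2.67% in E18 DKO, and the part of this in the differences was not tested. No rule was used to flag single libraries far from the others in groups of 3. Each library was left out in turn, and E12 WT 1 and WT library 3 labelled E18 were also left out together.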

How the results depend on the processing

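Besides leaving out single libraries, 9 alternatives were run, 8 for the stage difference, with 530 values of single genes, of which 479 kept direction and side of the threshold, 8 lost a call, 17 gained one, 20 changed sign and 6 moved otherwise (all Prelp with DESeq2, which gave it no adjusted p). The 12 fits without 1 library gave 720 values of single genes and 664, 25, 14 and 17 of these kinds. The causes were not tested except where fewer libraries were fitted.

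Genes called in E12 DKO against E12 WT (64) were 2085 with DESeq2, 5 with the replicate block, 0 in a fit of only these groups, 3753 with E12 WT 1 and WT library 3 labelled E18 both left out, and 1 to 3199 without single libraries, highest without E12 WT 1. In the WT libraries labelled E18 against E12 WT (173) they were 272 with library size alone, 1223 with DESeq2, 77 with the replicate block, 56 in a fit of only these groups, 1028 without the 2 libraries and 35 to 1684 without single ones. In E12 DKO against the WT libraries labelled E18 (34) they were 247 with DESeq2, 16 with limma voom, 21 with the replicate block, 73 in a fit of only these groups and 9 to 60 without single libraries. Members called at E12 (2) were 0 in a fit of only these groups, 4 without the 2 libraries and 1 to 4 without single ones. Between the wild-type labels (0) they were 1 without the 2 libraries and 0 to 1 without single ones, and for the stage difference (5) they were 4 to 8. Same-numbered libraries deviated together (r over 0.1) in 4 of 18 pairs, with r from -0.193 to 0.293. Deviations from a mean of 3 libraries are tied to each other, so this cannot decide whether the numbers pair the libraries. The block lost the calls of Tsku at E18 (0.84, adjusted p = 0.063) and of Aspn in E18 DKO against E12 DKO (3.00, adjusted p = 0.0884).

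Library size alone moved the median of all genes by 0.30 at E12 and -0.36 at E18. It put the 8-gene sum at 294 CPM per kilobase in E12 DKO, against 345.9 in E12 WT, and 75.9 in E18 DKO, against 487.2 in the WT libraries labelled E18. Signs changed at E12 for Ogn (0.18) and Tsku (0.18) with it, and for Prelp with limma voom (0.28) and the block (0.044). Without the 2 libraries the E12 values were 0.10 for Ogn, 1.27 for Prelp, 0.31 for Aspn, 0.25 for Tsku and 0.76 for Ecm2. Without single libraries they ran from -0.33 to 0.10, -0.87 to 1.27, -3.47 to 0.31, -0.34 to 0.25 and -1.10 to 0.76. Between the wild-type labels Prelp was 0.19 with library size, 0.52 with limma voom and 0.29 with the block, and limma voom gave 0.32 for Aspn and 0.084 for Ecm2. Without the 2 libraries the values there were -0.022 for Dcn, -0.32 for Lum, 1.53 for Prelp, 1.42 for Aspn and 0.86 for Ecm2, and without single ones -0.68 to 0.86, -0.13 to 0.30, -0.63 to 1.51, -1.83 to 2.25 and -0.81 to 1.06. Podn in E12 DKO against the WT libraries labelled E18 was -0.19 with limma voom and -0.71 to 0.33 without single libraries. The stage difference of Prelp ran from -1.86 to 0.28 and that of Dcn from -1.31 to 0.23. The calls of Lum, Fmod, Ogn and Podn in the E18 comparison and in the stage difference held in every alternative listed here. With 3 libraries per group, a missed call of a scarce gene such as Podn or Ecm2 at E12 does not show that it did not differ.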
